A study of Mus musculus with 12 samples.

Results

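The 10 genes described here, Trem2, Tyrobp, Clec7a, Itgax, Cd68, Lyz2, Aif1, Apoe, Lpl and Spp1, are those commonly used to mark disease-associated microglia and phagocytes in the brain. They were chosen by gene symbol in the annotation of the array's probe sets, which named 9 of them, at 11 probe sets, among 17097 genes. Spp1 (osteopontin), a secreted adhesion protein, was named by no probe set and was not analysed here. Mice had received kainic acid (KA), an agonist of glutamate receptors, into the amygdala (0.3 µg in a volume of 0.2 µl), with lorazepam, a benzodiazepine, at 6 mg/kg into the abdomen 40 min later. Control mice had received 0.2 µl of vehicle at that site; whether lorazepam followed is not in the labels. The hippocampus on the injected side was taken at 8 h or at 14 d, which gave 4 groups of 3 arrays each: KA at 8 h, control at 8 h, KA at 14 d and control at 14 d. Strain, sex and age are not given in the labels, and separate animals for the arrays are not stated either. The p-values therefore cover the spread between these samples alone, which may be technical.

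Microglia are the resident macrophages of the brain. Around damaged neurons, plaques or myelin debris they can pass into a state named disease-associated, in which receptors for lipids and debris, lysosomal proteins and lipid-handling genes are raised. TREM2 is a lipid-sensing receptor on their surface that has no signalling tail of its own and signals through the adaptor TYROBP, and it is needed for the full form of this state in mouse models of amyloid disease. APOE, the main lipid carrier of the brain, is among the ligands of TREM2 and is made mostly by astrocytes in healthy tissue.

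In 14 d tissue the transcripts of Trem2, Tyrobp, Cd68, Lyz2, Aif1 and Apoe were all higher after KA than in controls. At 8 h Cd68 and Tyrobp were the members that had risen. Of the 9 members measured, 8 lay above the filter on low values on all 12 arrays. Among these 8, 2 rose at 8 h and 6 rose at 14 d, and none fell at either time (limma, adjusted p under 0.05). With the replicate number as a block, 3 rose at 8 h, Lyz2 being the third, and 3134 of all genes passed there instead of 2420. At 14 d the block gave 7, Itgax included, and 599 of all genes passed instead of 354. Of the 13853 genes tested, 17.5% passed at 8 h (7.92% higher, 9.55% lower) and 2.56% at 14 d (1.99% higher, 0.57% lower). The KA and control arrays did not overlap for 3 of the 8 members at 8 h and for 7 at 14 d, all higher after KA, beside 33.8% of all genes at 8 h (14.8% higher) and 16.5% at 14 d (8.02% higher). The median log2 change of the 8 members was 0.10 at 8 h and 1.11 at 14 d, beside medians of -0.02 and -0.01 over all genes tested. The ninth member, Clec7a, passed the filter only through its 3 KA arrays at 14 d, so its passing already required a difference. It is left out of these counts and is given no test.

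**Figure D1:**
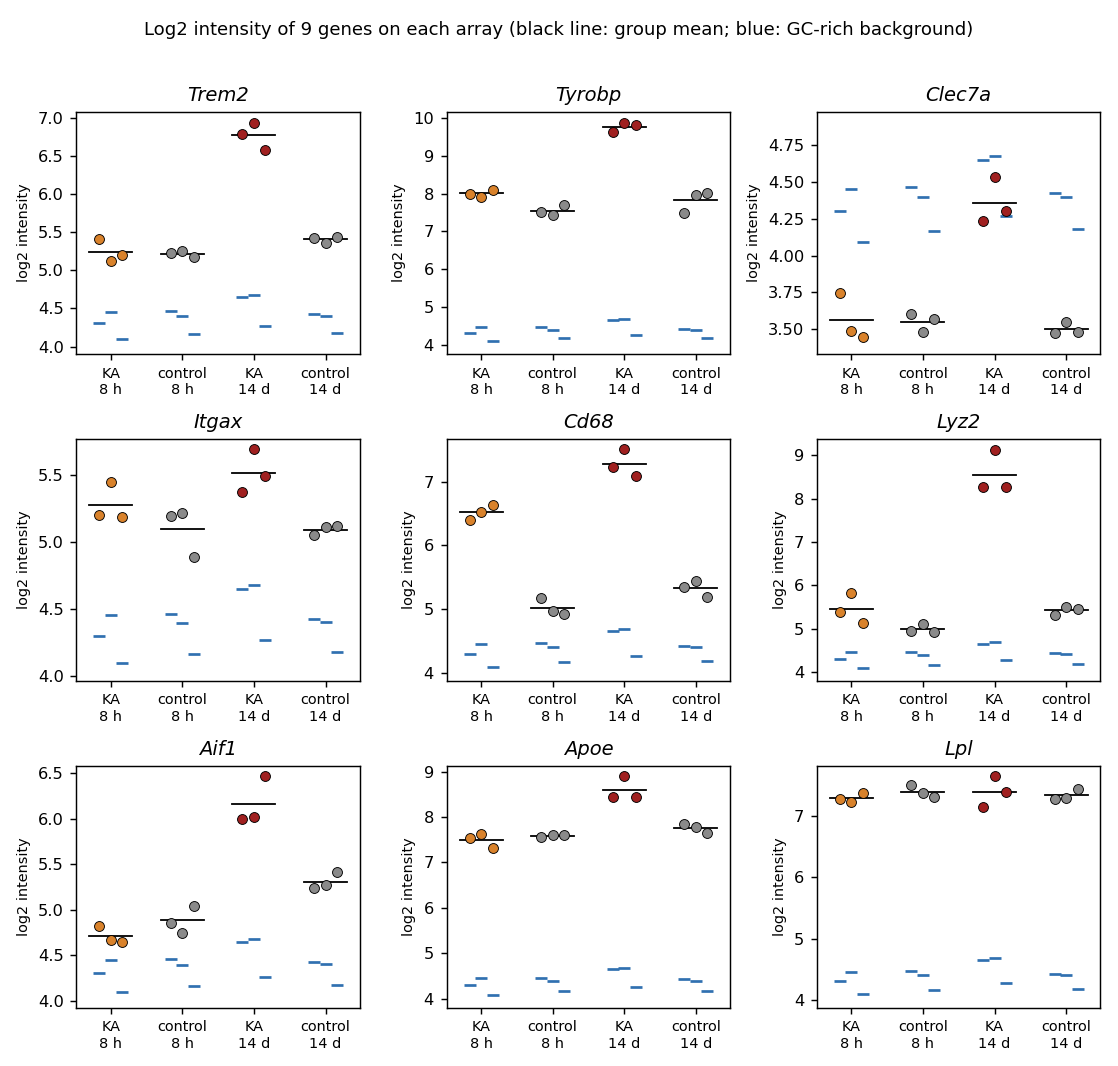
Log2 intensity of the 9 measured genes on each of the 12 arrays (points), with the group mean (black line) and each array's GC-rich background level (blue dash). The KA arrays at 14 d lie above all other arrays for Trem2, Tyrobp, Cd68, Lyz2, Aif1, Apoe and Clec7a, those of Cd68 at 8 h already lie between 6.40 and 6.63, and Lpl overlaps in all groups.

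The tissue carried the transcripts of hippocampal neurons on every array, Prox1 and Zbtb20 among them, all above background on 12 of 12. The microglial markers Csf1r, Cx3cr1, P2ry12 and Tmem119 were also above background on every array. Csf1r had 8.05 to 8.28 after KA and 7.31 to 7.43 in controls at 14 d (log2). At 8 h it had 6.82 to 7.07 after KA and 7.09 to 7.29 in controls. Xist, which silences an X chromosome in female cells, had values of 7.39 to 8.71 on the KA arrays at 8 h, against 4.34 to 4.61 on their controls, and the Y-linked Eif2s3y had 5.57 to 6.83 against 7.46 to 7.96. At 14 d Xist had 4.20 to 4.67 after KA and 4.29 to 4.55 in controls. Eif2s3y and the Y-linked Kdm5d were above background on all 12 arrays, those of KA at 8 h included. Sex-linked transcripts thus differed between the groups at 8 h. What a difference in sex adds cannot be told apart from KA in any value at 8 h given here. Besides its title, each array titled 8 h carries a second time. In the order of the samples it rises steadily from array to array. It is 8, 9 and 10 h for control replicates 1, 2 and 3 and 11, 12 and 13 h for KA replicates 1, 2 and 3. The time in the titles was used, and if the second one holds, time and KA cannot be told apart at 8 h either.

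Promoter windows were examined because 6 of the 8 members rose at 14 d. RefSeq (GRCm38.p6) gave 12 windows, from 250 bases before to 50 after a transcript start, for 8 of the 10 genes, Spp1 included. The hexamer GAGGAA, the core of sites for PU.1, the transcription factor that specifies macrophages and microglia, was searched on both strands, as were GAGGAAGT (PU.1, which contains the hexamer), TGANTCA (AP-1, the Fos and Jun dimer), TCACGTG (the MiT/TFE factors of lysosomal genes), the direct repeat bound by LXR, the sterol receptor, and TGTGGTT (RUNX). GAGGAA was found in 8 of the 12 windows, from 6 genes, and in 28.3% of all 32851 windows of this length. Windows of the same gene can overlap, and those of Clec7a nearly coincide and hold the same GAGGAA, which was counted in each. The share over all windows is per window, and no share per gene was counted. GAGGAAGT was found in 1 of the 12 and in 3.2% of all windows, TGTGGTT in 2 and 5.27%, and TCACGTG and the LXR motif in 0 of the 12, with 3.77% and 0.0152% of all windows holding them. TGANTCA was found in 3 windows, those of Cd68, Trem2 and Itgax, and in 7.81% of all windows. These 3 windows are shown since they hold a match to TGANTCA. They belong to a member that rose at both times, one that rose at 14 d and one that did not pass at either. Capitals mark each match to any of the 6 motifs, and a match is a description of these letters only.
Cd68 (chr11:69666121-69666420, minus strand): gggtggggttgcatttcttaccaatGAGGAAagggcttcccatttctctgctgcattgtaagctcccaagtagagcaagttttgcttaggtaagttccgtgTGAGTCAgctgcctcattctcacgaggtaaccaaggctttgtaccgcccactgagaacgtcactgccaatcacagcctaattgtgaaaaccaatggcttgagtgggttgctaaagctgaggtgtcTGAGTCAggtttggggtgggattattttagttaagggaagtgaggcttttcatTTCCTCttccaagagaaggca
Trem2 (chr17:48346151-48346450, plus strand): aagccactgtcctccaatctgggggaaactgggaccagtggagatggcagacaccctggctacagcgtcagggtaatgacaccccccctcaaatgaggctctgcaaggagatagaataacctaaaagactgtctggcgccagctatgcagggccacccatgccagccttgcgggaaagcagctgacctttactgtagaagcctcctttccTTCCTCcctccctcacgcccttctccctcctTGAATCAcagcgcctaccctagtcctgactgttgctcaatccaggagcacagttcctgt
Itgax (chr7:128129300-128129599, plus strand): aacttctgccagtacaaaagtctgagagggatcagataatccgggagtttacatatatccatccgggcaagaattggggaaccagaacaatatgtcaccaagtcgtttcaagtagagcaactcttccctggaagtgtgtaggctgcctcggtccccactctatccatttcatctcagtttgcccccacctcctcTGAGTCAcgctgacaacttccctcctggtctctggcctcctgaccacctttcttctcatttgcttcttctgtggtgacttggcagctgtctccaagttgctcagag
The pattern TGANTCA, in which N is any base, matched the Cd68 window at positions -149 and -24 relative to the start. It matched the Itgax window at -56 and the Trem2 window at -9. The matches in Cd68 and Itgax read TGAGTCA, whereas that in Trem2 reads TGAATCA.

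Trem2, the lipid-sensing receptor, rose at 14 d. At its brighter probe set it stood at 6.79, 6.94 and 6.58 (log2) on the KA arrays at 14 d, against 5.42, 5.36 and 5.44 on the controls. All 3 KA arrays lay more than 1 log2 unit above all 3 controls, which lay close together. The change was 1.36 ± 0.10 (SE, n = 3 per group, limma adjusted p = 4.35e-07), or 2.57-fold. At 8 h the values were 5.41, 5.12 and 5.20 on the KA arrays and 5.23, 5.25 and 5.17 on the controls. These groups overlapped and differed by 0.02 ± 0.10 (95% interval -0.19 to 0.23, adjusted p = 0.924). The change at 14 d exceeded that at 8 h by 1.34 ± 0.14 (adjusted p = 2.66e-05). The other Trem2 probe set lay below the GC-rich background on all 12 arrays and changed by 0.10 ± 0.10 at 14 d (adjusted p = 0.848 over 28898 probe sets). With the mean of both probe sets the change at 14 d was 0.73 (adjusted p = 0.000183). The brighter probe set is of a type whose sequence several transcripts can share. With such probe sets left out, Trem2 was not tested.

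Tyrobp encodes the adaptor through which TREM2 and other myeloid receptors signal. Its values at 14 d were 9.63, 9.88 and 9.82 on the KA arrays and 7.48, 7.97 and 8.02 on the controls. The KA arrays were high without overlap, and control replicate 1 was the lowest of its group. The gene was 3.86-fold higher at 14 d (log2 change 1.95 ± 0.13, adjusted p = 1.41e-07). At 8 h it stood at 7.99, 7.92 and 8.10 on the KA arrays, against 7.51, 7.43 and 7.68 on the controls, again without overlap. This smaller rise was 1.38-fold (log2 change 0.46 ± 0.13, adjusted p = 0.0189), and it did not pass without control replicate 1 (adjusted p = 0.0587), control replicate 2 (adjusted p = 0.0833), KA replicate 1 (adjusted p = 0.0521) or KA replicate 3 (adjusted p = 0.0653) of that time, in a range from 0.00376 over all alternatives. The change at 14 d was larger by 1.49 ± 0.18 (adjusted p = 0.000115).

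The counts of related lists that follow cover genes above the filter on all 12 arrays. Of the genes that signal with or below TREM2 and TYROBP, 13 of 18 listed were so measured. At 14 d 2 of them rose and none fell, with a median log2 change of 0.16, and at 8 h 1 rose, with a median of 0.01. Pik3cg, a catalytic subunit of PI3 kinase in leukocytes, was higher at 14 d by a factor of at least 1.40 (1 of 3 control arrays above background), and Cd33, a sialic-acid-binding receptor that opposes TREM2 signalling, was 1.37-fold higher (adjusted p = 0.0109 and 0.0198). Ptpn6, a phosphatase that dampens such receptors, averaged 4.34 ± 0.09 after KA and 3.80 ± 0.02 in controls (SD, n = 3 each) at 14 d. It passed the filter only through the KA arrays at that time, so it is not counted and has no test. The kinase gene Syk, which TYROBP recruits, changed by 0.26 ± 0.09 (adjusted p = 0.198) and Plcg2, a phospholipase below it, by 0.17 ± 0.12 (adjusted p = 0.629) at 14 d, and neither passed. At 8 h the adaptor gene Grb2 was 1.80-fold higher (adjusted p = 2.40e-05).

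Clec7a encodes dectin, a C-type lectin that binds beta-glucans and is a widely used marker of disease-associated microglia. It was dim throughout. At 14 d it stood at 4.24, 4.54 and 4.30 on the KA arrays, of which the third alone lay above its own GC-rich background (4.27), against 3.47, 3.55 and 3.48 on the controls. All KA arrays lay above all controls. No fold or test is given, as 2 of the KA arrays and all controls were below background and the filter was passed through the KA arrays alone. At 8 h it stood at 3.75, 3.49 and 3.44 after KA and 3.60, 3.48 and 3.57 in controls, below background on every array.

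Itgax encodes an alpha subunit of the integrins that bind complement fragments, and marks dendritic cells and a subset of reactive microglia. It lay at 5.37, 5.69 and 5.49 on the KA arrays at 14 d and at 5.05, 5.11 and 5.12 on the controls. The groups did not overlap, which was so for 8.02% of all genes in that direction, but the change of 0.42 ± 0.11 (95% interval 0.19 to 0.66) did not pass over all genes (adjusted p = 0.0529). Without control replicate 3 or KA replicate 2 of the 8 h groups, which enter only through the shared spread, the adjusted p was 0.0328 and 0.0428. With the replicate number as a block it was 0.0115, and it ranged from there to 0.172 over all alternatives. Without KA 14 d replicate 2, its brightest array, the change was 0.34 (adjusted p = 0.155). At 8 h the values were 5.20, 5.45 and 5.19 after KA and 5.19, 5.22 and 4.89 in controls, with overlap and a difference of 0.18 ± 0.11 (adjusted p = 0.318).

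Among 17 further phagocytic receptor and integrin genes, 7 rose and none fell at 14 d (median log2 change 0.29), and 7 rose and 1 fell at 8 h (median 0.12). Fcer1g, the signalling chain of Fc receptors and a relative of TYROBP, was 2.80-fold higher at 14 d, and Itgb2, the beta subunit that pairs with the product of Itgax, was 2.75-fold higher. Cd44, a receptor for hyaluronan and osteopontin, was 2.55-fold higher at 14 d and 4.41-fold higher at 8 h, and Itgb5, an integrin beta subunit, was 1.91-fold higher at 14 d (adjusted p from 1.93e-07 to 1.39e-05 for these 4 at 14 d). Fcer1g (1.47-fold) and Itgb2 (1.53-fold) had also risen at 8 h (adjusted p = 0.00108 and 0.00193). Mertk, a receptor for apoptotic cells named after its value was seen, was 1.47-fold lower at 8 h (adjusted p = 0.00241). It was also 1.51-fold lower in controls at 14 d than in controls at 8 h (limma adjusted p = 0.0112). The 8 h controls averaged 7.95, against 7.40 after KA at 8 h, 7.35 in controls at 14 d and 7.41 after KA at 14 d.

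Cd68 encodes a lysosomal membrane glycoprotein of phagocytes and was the member with the largest change at 8 h. Its values at that time were 6.40, 6.53 and 6.63 after KA, against 5.18, 4.97 and 4.93 in controls. Every KA array lay over 1 log2 unit above every control. It was 2.82-fold higher at 8 h (log2 change 1.50 ± 0.11, adjusted p = 2.68e-07), the 81st largest change upwards of 13853 genes. At 14 d it stood at 7.23, 7.50 and 7.08 after KA and 5.34, 5.44 and 5.19 in controls, which was a 3.86-fold rise (log2 change 1.95 ± 0.11, adjusted p = 5.90e-08). Its change at 14 d exceeded that at 8 h by 0.45 ± 0.16, which did not pass (adjusted p = 0.125) except without KA 14 d replicate 3 (adjusted p = 0.0441) and with array weights (adjusted p = 0.0346).

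Lyz2, the lysozyme of macrophages and granulocytes, had the largest change of the members at 14 d. It stood at 8.26, 9.14 and 8.26 after KA and 5.31, 5.50 and 5.46 in controls. The KA arrays were far above the controls, with replicate 2 the highest. The gene was 8.75-fold higher (log2 change 3.13 ± 0.20, adjusted p = 1.16e-07), the second largest change upwards of all genes tested. At 8 h it stood at 5.39, 5.83 and 5.14 after KA, without overlap with 4.94, 5.12 and 4.92 in controls. That difference of 0.46 ± 0.20 (95% interval 0.04 to 0.88) did not pass (adjusted p = 0.136), though it did in 5 of the alternatives. These were the replicate number as a block (adjusted p = 0.0194), KA 14 d replicate 2 left out (0.0260), the GC-rich background as a covariate (0.0279), array weights (0.0491) and only the groups compared (0.0496). The change at 14 d was larger by 2.67 ± 0.28 (adjusted p = 2.81e-05). The probe set used for Lyz2 is of the type whose probes can match several similar transcripts, so the share of its paralog Lyz1 cannot be told apart by it. Lyz1, named here after its values were seen, has a probe set of its own that lay between 3.75 and 3.98 after KA at 14 d and between 3.82 and 3.94 in controls, below background on all 12 arrays.

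Aif1, an actin-binding protein that marks microglia of every state, rose at 14 d. Its values were 6.00, 6.02 and 6.47 after KA and 5.24, 5.27 and 5.41 in controls. The groups did not overlap, and KA replicate 3 was the highest. It was 1.81-fold higher (log2 change 0.85 ± 0.12, adjusted p = 0.000607). At 8 h it stood at 4.83, 4.67 and 4.65 after KA, overlapping with 4.86, 4.75 and 5.05 in controls, and the difference was -0.17 ± 0.12 (adjusted p = 0.407). The change at 14 d exceeded that at 8 h by 1.02 ± 0.17 (adjusted p = 0.00176). The probe set used for Aif1, like the brighter one of Trem2, is of a type whose sequence several transcripts can share. In whole tissue, more cells of a type and more RNA per cell cannot be told apart, here or for any other member.

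Set against Aif1 on the same arrays, the members fell into different ranges at 14 d. The log2 ratio to Aif1 was higher after KA by 2.28 for Lyz2, by 1.10 for Cd68 and by 1.10 for Tyrobp, and for these 3 the KA and control arrays did not overlap. For Trem2 it was higher by 0.51, with overlap. Apoe differed by -0.02, with overlap. Lpl and Itgax were lower relative to Aif1, by -0.79 and -0.43, without overlap. Aif1 itself rose by 0.85 at 14 d, so a gene that did not change is low by this ratio. Against controls, without the ratio, Lpl and Itgax changed by 0.06 and 0.42. At 8 h the log2 ratio to Aif1 was higher after KA by 1.67 for Cd68 and by 0.63 for Lyz2 and for Tyrobp, without overlap, and that of Trem2, Apoe, Lpl and Itgax overlapped. These ratios describe the array values and were not tested. The share of all genes whose ratio to Aif1 did not overlap was not counted. Aif1 was dim at 8 h, at 4.67 on KA replicate 2 beside a GC-rich background of 4.455 on that array. This limits how far the ratios at 8 h can be read.

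Apoe, the lipid carrier, rose at 14 d. It stood at 8.45, 8.89 and 8.45 after KA and at 7.84, 7.79 and 7.66 in controls. All KA arrays were above all controls, with KA replicate 2 the highest, and the rise was 1.78-fold (log2 change 0.83 ± 0.12, adjusted p = 0.000608). At 8 h it stood at 7.53, 7.63 and 7.31 after KA and 7.56, 7.60 and 7.61 in controls, which overlapped and differed by -0.10 ± 0.12 (adjusted p = 0.665). The change at 14 d was larger by 0.93 ± 0.16 (adjusted p = 0.00297). Astrocytes also express Apoe, and of 11 astrocyte markers 5 rose at 14 d, and their summed linear intensity was 11740 to 14120 after KA, against 8812 to 9472 in controls. Vim, an intermediate filament of reactive glia, was 4.20-fold, Gfap, the astrocyte filament, 3.36-fold, Aqp4, the water channel of astrocyte endfeet, 1.91-fold and Aldh1l1, a folate enzyme, 1.55-fold higher. At 8 h 3 of the 11 astrocyte markers had risen and 1 had fallen, with Vim 2.98-fold, Sox9, a glial transcription factor, 2.19-fold and Gfap 2.03-fold higher, at the time when Apoe differed by -0.10. The part of astrocytes in the rise of Apoe was not tested.

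Lpl encodes lipoprotein lipase, which releases fatty acids from lipoproteins and is listed among the late genes of the disease-associated state, and which neurons of the hippocampus also express. At its brighter probe set it stood at 7.15, 7.65 and 7.40 after KA at 14 d, with the controls at 7.28, 7.30 and 7.44. The KA arrays spread on both sides of the controls, and the difference was 0.06 ± 0.11 (95% interval -0.17 to 0.29, adjusted p = 0.896), which leaves room for changes of either sign within that interval. At 8 h it lay at 7.29, 7.24 and 7.38 after KA and 7.51, 7.38 and 7.32 in controls, and differed by -0.10 ± 0.11 (95% interval -0.33 to 0.13, adjusted p = 0.630). Its other probe set lay below background on all 12 arrays. Of 14 other genes of lipoprotein handling measured, 2 rose at 14 d (median 0.18), namely Clu, a lipid-binding chaperone also named apolipoprotein J (1.34-fold), and Plin2, a coat protein of lipid droplets (1.44-fold). At 8 h 2 rose and 2 fell (median 0.05), led by Plin2, which was 2.04-fold higher (adjusted p = 1.37e-05), Pltp, a phospholipid transfer protein, 1.41-fold lower (adjusted p = 0.0237), and Lmf1, a factor for the maturation of lipases, 1.26-fold lower (adjusted p = 0.0423).

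**Figure D2:**
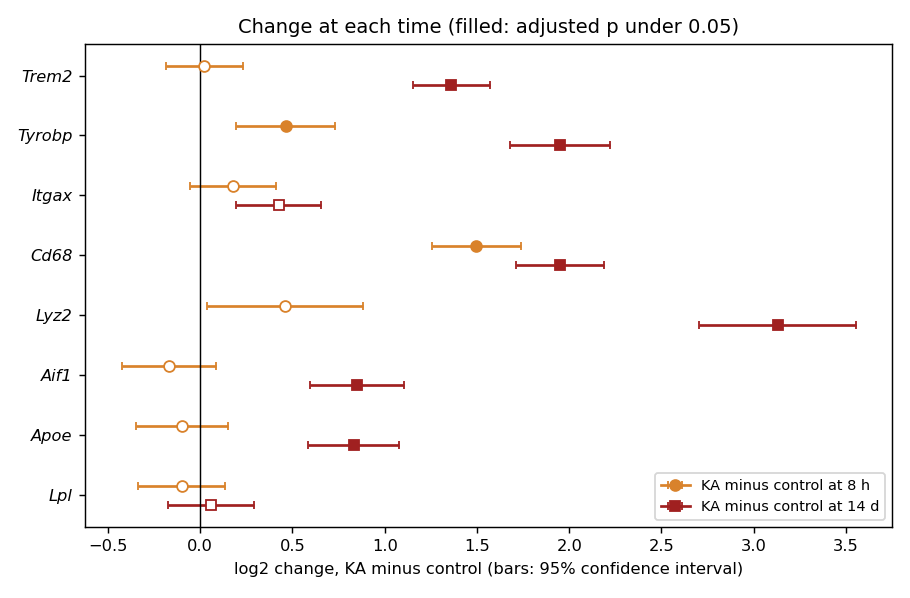
Log2 change, KA minus control, of the 8 genes above the filter on all arrays at 8 h (circles) and at 14 d (squares), with 95% confidence intervals from limma and filled symbols for an adjusted p under 0.05. Cd68 lies at 1.50 at 8 h and at 1.95 at 14 d, with filled symbols at both. Lyz2 and Trem2 have 14 d values of 3.13 and 1.36 and intervals at 8 h that reach down to 0.04 and -0.19.

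The test of the difference between the 2 changes passed for 5 of the 8 members above the filter on all arrays, each with a larger change at 14 d, and 5.52% of all genes passed this test (2.45% higher, 3.06% lower). It did not pass for Cd68, Itgax or Lpl. Among the KA arrays at 14 d, replicate 2 was the brightest for 8 of the 9 members and replicate 3 for Aif1. Its GC-rich background of 4.68 was also the highest of the 12 arrays. Without it, the changes at 14 d were 2.84 for Lyz2, 1.90 for Tyrobp, 1.83 for Cd68, 1.28 for Trem2, 0.92 for Aif1 and 0.68 for Apoe, and each of these 6 still passed.

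Other genes of the disease-associated state moved at both times. Of 23 such genes, 11 rose and none fell at 14 d (median log2 change 0.34), and 6 rose and 2 fell at 8 h (median 0.06). At 14 d Ctsd and Ctsz, lysosomal cathepsins, were 2.61-fold and 2.60-fold higher, and Cd9, a tetraspanin, was 2.09-fold higher (adjusted p from 1.02e-07 to 1.10e-06). Cst7, an inhibitor of cathepsins, is not in these counts, as it lay above the filter on 5 arrays. It was at least 13.5-fold higher at 14 d, where 0 of 3 controls exceeded background. At 8 h Cd9 was 1.81-fold higher, Lilrb4a, an inhibitory receptor of myeloid cells, 1.72-fold higher, and Ch25h, which makes an oxysterol, rose at least 1.45-fold, as 1 of 3 controls exceeded background (adjusted p from 3.52e-06 to 0.000525). Among the genes of homeostatic microglia, 8 of 9 rose at 14 d (median 0.81), with Fcrls 2.84-fold, Olfml3 2.46-fold, the fractalkine receptor Cx3cr1 2.06-fold and the growth factor receptor Csf1r 1.75-fold higher. At 8 h 5 of the 9 fell and 1 rose (median -0.29), with the ADP receptor P2ry12 2.96-fold and Tmem119 1.48-fold lower and Fcrls 1.75-fold higher (adjusted p from 7.21e-07 to 0.00295). Between the control groups, 3 of these 9 were also higher at 14 d than at 8 h (median 0.35), namely Cx3cr1 (1.91-fold), Olfml3 (1.57-fold) and P2ry12 (1.50-fold).

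**Figure D3:**
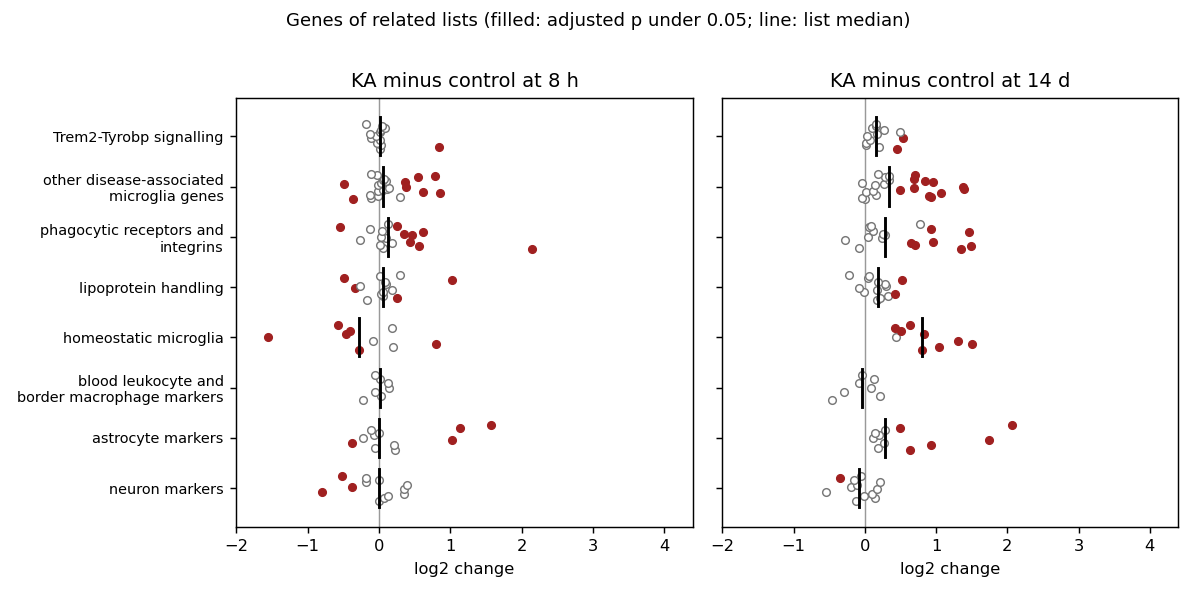
Log2 change, KA minus control, of the genes of 8 lists that lay above the filter on all arrays, at 8 h (left) and 14 d (right), where each point is a gene, filled at an adjusted p under 0.05, and the black line is the list's median. Homeostatic microglia genes have a median of -0.29 at 8 h and 0.81 at 14 d, and the blood leukocyte and border macrophage markers have no filled point.

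Blood leukocytes and border macrophages also express several members, among them Lyz2, Itgax and Clec7a. Of 9 genes tested in their list, 0 passed at 8 h and 0 at 14 d in limma. This list holds 2 red-cell genes, Hba-a1 and Alas2, with summed linear intensities of 4073 to 5024 after KA and 5110 to 6130 in controls at 14 d. The other 13 genes on the array, of which 7 were tested, summed to 251.5 to 296.7 after KA and 250.5 to 260.9 in controls at 14 d. At 8 h they summed to 260.0 to 278.3 after KA and 250.0 to 268.0 in controls. The groups overlapped at both times. Of these 13 genes, 6 lay below background on all 12 arrays, so much of each sum is background and a change could be missed. Ccr2, S100a8, Cd3e and Cd163 were below background on all 12 arrays, and Nkg7 and Ms4a1 were too. So were Gpr34 and Sall1 of the homeostatic microglia list and Itgam of the phagocytic receptor list. A value below background therefore does not show that a cell type was absent. At 14 d S100a9 had values of 5.14 to 5.29 after KA and 5.21 to 5.31 in controls, Cd79a 5.51 to 5.84 and 5.37 to 5.59, and Mrc1 4.06 to 4.48 and 4.22 to 4.35. Among 12 neuron markers, 1 fell at 14 d (Syt1, a calcium sensor of synaptic vesicles, 1.27-fold lower) and 3 fell at 8 h (Tubb3, Neurod6 and Rbfox3, 1.44-fold, 1.74-fold and 1.30-fold lower). Col1a1, a collagen, was the 1 gene of 7 choroid plexus and meninges markers that rose at 14 d (1.61-fold), and 0 passed at 8 h. Their level was uneven over the KA arrays at 8 h. The 10 such markers on the array summed to 1186 to 5461 there, against 4367 to 5257 in controls. Ttr, a choroid plexus marker, had 9.57 to 12.18 and 11.87 to 12.15 (log2). Of 8 reference genes, 0 passed at 14 d and Rplp0 (1.26-fold higher) passed at 8 h. The part of these cell types in the members' changes was not tested.

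Between the control groups, none of the members passed (14 d minus 8 h, limma), although 4 of the 8 had an unadjusted p under 0.05, and 1.8% of all genes passed (1.12% higher, 0.679% lower). Cd68, Lyz2, Trem2, Apoe and Aif1 had control arrays at 14 d that all lay above those at 8 h, as 15.3% of all genes did (25.1% without overlap in either direction). The largest of these differences were 0.43 ± 0.20 for Lyz2 (adjusted p = 0.332) and 0.42 ± 0.12 for Aif1 (adjusted p = 0.0867, and 0.0207 without KA 14 d replicate 3, in a range from 0.00342 to 0.286). Lpl and Itgax differed by -0.06 ± 0.11 and -0.01 ± 0.11. These control arrays also enter the changes after KA, so the comparisons share samples.

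Of 12867 other genes, 6 were picked for a profile over the 12 arrays most like the average of the 9 measured members, Clec7a included. These were Mpeg1, Ctsh, Ctsz, C1qa, Ctsd and C1qb, with Pearson r from 0.984 to 0.988 as a measure of likeness. Mpeg1 encodes a pore-forming protein of macrophages, C1qa and C1qb chains of the first complement component, and the others cathepsins. Their log2 changes at 14 d were 1.65, 1.17, 1.38, 2.24, 1.39 and 1.88 in that order, and at 8 h those of Ctsz (0.38) and C1qb (0.45) passed. For single members the most similar gene was Cd9 for Cd68 (r = 0.970), Ctsh for Lyz2 (0.990), Laptm5 for Trem2 and for Aif1 (0.981 and 0.963), C1qb for Tyrobp (0.989), Ptpn6 for Apoe (0.976), Mpeg1 for Clec7a (0.970), H2-M3 for Itgax (0.940) and Sp100 for Lpl (0.851). The average was highest on the KA arrays at 14 d, so high values there in the 6 genes follow from how they were picked. Clec7a and Ptpn6 passed the filter only through those arrays. The values of r describe 12 arrays that fall into 4 groups, and no test was made of them.

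**Figure D4:**
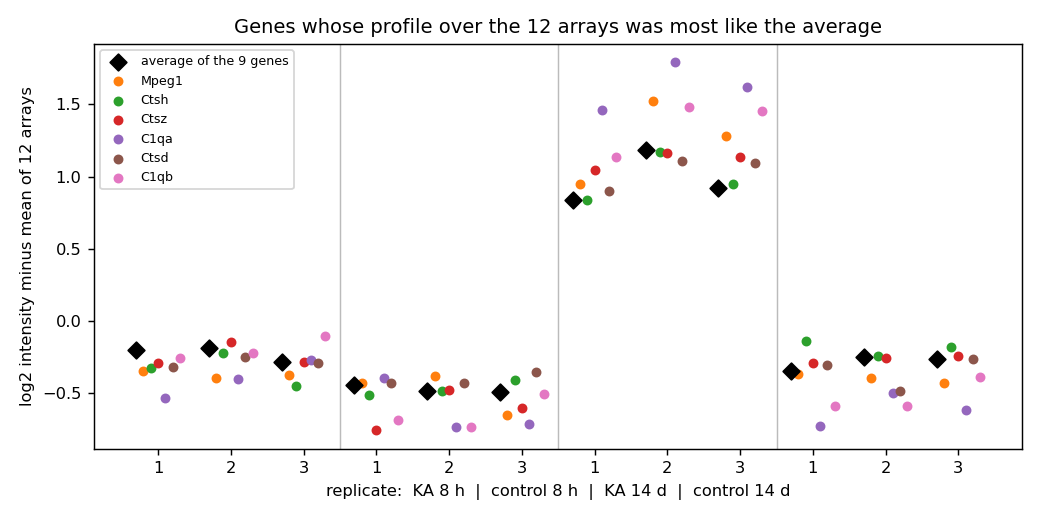
Log2 intensity of 6 genes and of the average of the 9 measured members (diamonds) on each array, each minus its mean over the 12 arrays. All 7 profiles are highest on the 3 KA arrays at 14 d, and the 6 genes were picked for their likeness to the average.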

How the data were processed

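RNA of the ipsilateral hippocampus was measured on 12 Affymetrix Mouse MG-430 PM arrays after amplification of 5 ng over 22 cycles, per the labels. The log2 intensities were made by the authors and deposited as 1 table. RMA and affy are named, per the submitters' processing notes, with no version, role or order, and the range (2.63 to 13.2) with array medians of 4.90 to 4.95 has the form of RMA output. The table does not state its scale.

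Of 45037 probe sets that are not controls, 28898 carried 1 gene symbol, 551 several and 15588 none in the annotation used. For each gene the probe set with the highest mean was taken, and 13853 genes above the array's 30th percentile (4.08 to 4.15) on at least 3 arrays were tested. The GC-rich background is the mean of 8 nonspecific probe sets with 18 to 25 G or C bases on each array, a strict level for probes of lower GC content; it was 4.53 ± 0.23 in the KA arrays at 14 d, 4.34 ± 0.14 in their controls, 4.28 ± 0.18 in the KA arrays at 8 h and 4.34 ± 0.16 in theirs (SD, n = 3 each). A fold against a group with an array at or below it was counted from it and written "at least".

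The fit was limma's lmFit and eBayes (limma 3.58.1, R 4.3.3) over all 12 arrays, with a mean for each group and 8 residual degrees of freedom. Tests were two-sided with Benjamini-Hochberg adjustment over all genes tested. The members, the 11 related lists, the rule for naming genes (all members, and of each list up to 4 called genes at 14 d and 3 at 8 h by adjusted p, with marker genes beside them) and the motifs were chosen with earlier results of these data known. Precision is limited by the 3 arrays per group, which correlated within groups at r = 0.989 to 0.997. On simulated data of 13853 genes, a log2 change of 0.5 was recovered in 73.1% of cases at 8 h and 76.1% at 14 d. Few genes were given a change there (67 at this size), and the noise was independent between arrays. The rates in the data may therefore differ.

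Replicate numbers are shared between groups. The deviations of same-numbered arrays from their group means correlated at 0.16, 0.14 and 0.41 at 8 h, and at 0.15, 0.06 and 0.48 at 14 d. At each time 4 of 6 arrays were closest to the array of their own number. A pairing is therefore seen only in part in the values, and the labels state none. Replicate 3 had the lowest GC-rich background in each group, and whether this bears on the correlations was not tested. The values given come from the fit without a block, and the blocked value stands beside a member's change after KA where it changes the call. Alternatives covered 27 settings of filter, probe sets, normalization, fit and arrays.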

Additional observations from a re-analysis of the deposited data

Results flagged for a closer look

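The change after KA differed between the 2 times for 5 of the 8 members above the filter on all arrays, by the test of the difference itself in limma. The change at 14 d was larger than that at 8 h by 2.67 (log2) for Lyz2, 1.49 for Tyrobp, 1.34 for Trem2, 1.02 for Aif1 and 0.93 for Apoe. All 3 KA arrays at 14 d lay above their controls for each of the 5. Sex-linked transcripts differed between the 8 h groups. A difference in sex or, if the second time holds, in time enters these values and cannot be told apart from KA.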

How the results depend on the processing

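Over 27 alternatives, 817 of 844 values of the 8 members above the filter on all arrays kept their side of the threshold, 5 lost a call (Tyrobp at 8 h) and 22 gained one, and none that was called changed sign. With arrays left out one at a time, members called numbered 1 to 3 at 8 h, 6 to 7 at 14 d, 5 to 6 for the difference of changes and 0 to 1 between controls (Aif1), and genes called numbered 1659 to 2748, 196 to 457, 508 to 902 and 86 to 421. At an adjusted p under 0.01, 1 member was called at 8 h, and genes called numbered 1352, 170, 346 and 64 in the same order. With every probe set tested, 3673 probe sets were called at 8 h. With probe sets of shared sequence left out, 3 members were called at 14 d and 2 for the difference, since this removes the probe sets used for Lyz2, Trem2 and Aif1. With a replicate block (paired fit), genes called numbered 3134 at 8 h and 599 at 14 d, those of the difference 1214 and those between controls 570, with 1 member between controls (Aif1), and Itgax passed at 14 d (adjusted p = 0.0115). At each time, 4 of 6 arrays were closest to their own number's partner. Array weights, whose estimation stopped before convergence, gave 2099 genes at 14 d, 2168 for the difference and 1336 between controls, with 3 members between controls (Cd68, Tyrobp and Aif1). With each array's GC-rich background as a covariate, chosen after seeing the data, these counts were 650, 1443 and 742, with 1 member between controls. With only the groups compared in the fit, 543 genes and 2 members (Lyz2 and Aif1) passed between controls, and without the third array of each group 1 member (Aif1) did. Counts moved by over 1.5 times without control 14 d replicate 2 (196), control 14 d replicate 3 (211) or KA 14 d replicate 1 (228) at 14 d, and without control 14 d replicate 2 (508) for the difference. Between controls they did so without control 8 h replicate 1 (86) or 2 (127), control 14 d replicate 1 (87), 2 (92) or 3 (105), and KA 14 d replicate 2 (421) or 3 (411). Lpl at 14 d, never called, ranged from -0.13 to 0.19 and so turned sign. The fit of only the groups compared was not run for the difference, which needs all 4. The causes of these shifts were not tested. Probe sets at background, as for Clec7a, limit how far a level can be read.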
